A study of Mus musculus with 14 samples.

Results

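Cajal-Retzius cell genes are described here across 2 expression vectors and 2 times after electroporation in embryonic mouse cortex. The 7 genes are Reln, Calb2, Cacna2d2, Ebf3, Trp73, Lhx1 and Lhx5, and for each of them every probe set was taken (a group of short array probes for 1 transcript) that the platform annotation assigns to that symbol alone. This gave 14 probe sets for the 7 genes, out of 45037 probe sets and 18193 genes with a probe set of their own. For each gene the probe set of highest mean over all arrays stands for the gene, and the others are given beside it. A log2 level under 4 is called dim here, and a gene was tested where at least 3 of the 14 arrays lay above it. This kept 4 of the 7 genes (Reln, Calb2, Cacna2d2 and Ebf3) among 10295 tested genes, and left Trp73, Lhx1 and Lhx5 below the dim level on all 14 arrays.

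All arrays came from CD1 mouse embryos whose neocortical progenitors were electroporated in utero at E14.5 with DNA mixed with the dye Fast Green. The DNA was either the Fezf2GFP vector, which carries Fezf2 (a zinc-finger transcription factor of deep-layer projection neurons) with green fluorescent protein, or the CtrlGFP vector without Fezf2. Fluorescent cells were sorted by FACS after 24 h, with 3 arrays per vector, or after 48 h, with 4 arrays per vector. The sources used here name neither the promoter that drives the vectors nor any pooling of embryos. Whether replicate arrays stem from different litters or embryos is likewise unstated, so the p-values below reflect array-to-array spread, which may be technical.

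Cajal-Retzius cells are among the earliest neurons of the cortex. They arise at borders of the cortical sheet, such as the cortical hem, the septum and the boundary of pallium and subpallium, and spread through the marginal zone under the brain surface. They secrete reelin, an extracellular glycoprotein that binds the receptors Vldlr and Lrp8 on migrating neurons, leads to phosphorylation of the adaptor Dab1 inside those cells and guides the layering of the cortex. Trp73 (the p53 relative p73) and the LIM-homeodomain factors Lhx1 and Lhx5 are transcription factors that mark these cells. Ebf3 is a helix-loop-helix factor of the Collier/Olf/EBF family, Calb2 encodes the calcium-binding protein calretinin, and Cacna2d2 encodes an auxiliary alpha2delta subunit of voltage-gated calcium channels. Reln and Calb2 are also used by other neurons, among them classes of cortical interneurons, so neither gene alone names a cell type.

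The start regions of 3 of the tested genes are shown because these are the genes whose levels the results below compare, and because EBF proteins, one of which is a member, bind a palindromic core. Each sequence covers 250 bases before to 50 bases after the gene start, is credited to RefSeq with build GRCm38.p6, and is written 5′ to 3′ on the strand of the gene. Capitals mark matches to the EBF core CCCNNGGG or to the E-box CANNTG, both of which read the same on either strand.
Reln promoter: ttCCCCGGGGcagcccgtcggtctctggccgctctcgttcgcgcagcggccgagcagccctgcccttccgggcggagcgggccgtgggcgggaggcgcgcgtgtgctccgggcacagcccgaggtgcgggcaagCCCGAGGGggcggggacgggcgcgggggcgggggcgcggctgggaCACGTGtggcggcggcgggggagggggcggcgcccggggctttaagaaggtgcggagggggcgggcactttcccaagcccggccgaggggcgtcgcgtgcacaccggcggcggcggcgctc
Ebf3 promoter: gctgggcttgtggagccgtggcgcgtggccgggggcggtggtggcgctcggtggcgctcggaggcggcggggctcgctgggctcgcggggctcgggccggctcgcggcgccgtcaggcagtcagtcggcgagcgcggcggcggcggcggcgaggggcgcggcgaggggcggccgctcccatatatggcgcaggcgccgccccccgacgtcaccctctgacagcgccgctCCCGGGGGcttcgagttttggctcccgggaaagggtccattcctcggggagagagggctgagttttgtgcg
Cacna2d2 promoter: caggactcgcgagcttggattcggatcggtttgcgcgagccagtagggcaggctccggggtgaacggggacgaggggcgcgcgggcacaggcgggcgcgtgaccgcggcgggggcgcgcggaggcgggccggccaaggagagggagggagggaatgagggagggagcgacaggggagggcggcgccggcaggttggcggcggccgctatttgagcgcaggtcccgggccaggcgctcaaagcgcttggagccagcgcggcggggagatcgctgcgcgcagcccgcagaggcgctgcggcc

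The Reln region lies at chr5:22344656-22344955 on the minus strand, the Ebf3 region at chr7:137314396-137314695 on the minus strand and the Cacna2d2 region at chr9:107399630-107399929 on the plus strand. All 3 were rich in G and C, at 80.7% for Reln, 77.0% for Ebf3 and 75.7% for Cacna2d2, against a median of 52.7% over all promoters of the table. The GC content of the Reln region was higher than that of 99.2% of them, and it held 47 CpG dinucleotides. The letters CCCNNGGG occurred 2 times in the Reln region (CCCCGGGG and CCCGAGGG), 1 time in the Ebf3 region (CCCGGGGG) and 0 times in the Cacna2d2 region, and 13.7% of 32851 promoters of the same length held them. The letters CANNTG occurred 1 time in the Reln region (CACGTG) and not in the other 2 regions, against 72.3% of all promoters. The letters TAATTA, a core of homeodomain sites, were in none of the 3 regions and in 5.29% of all promoters. The matches and their absence describe letters in these windows only. Calb2 and Lhx5 had no entry.

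Across the arrays the median of all deposited log2 values lay between 3.26 and 3.50, and arrays of 1 group correlated at 0.942 to 0.993 over the tested genes. CtrlGFP 24 h replicate 1 and CtrlGFP 48 h replicate 2 had the highest medians and departed from their group means together, with a correlation of 0.593 over 10295 genes. The probe set of Fezf2 read 9.31 to 9.52 on the Fezf2GFP arrays and 10.82 to 11.54 on the CtrlGFP arrays at 24 h, and 8.67 to 10.25 against 9.63 to 10.65 at 48 h. It was thus lower on the arrays labelled Fezf2GFP at 24 h (log2 fold change -1.86, limma adjusted p = 0.0324), and at 48 h the difference was -0.82 (limma adjusted p = 0.239). The Fezf2 level thus goes against the vector labels at 24 h. Whether this probe set can read the transcript made from the vector is unstated, and an exchange of labels was not tested. Vector names below are those of the labels, every direction rests on them alone, and exchanged labels would turn each vector difference. The 13 cortical excitatory lineage genes tested had a mean log2 level of 12.4 to 13.2 on every array.

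On the arrays labelled Fezf2GFP, Calb2 was higher at 48 h. Reln and Cacna2d2 had higher means at both times and Ebf3 at 24 h, without passing the test, and at 48 h both Ebf3 means were below the dim level. At 24 h, 0 of the 4 tested members passed limma's test with Benjamini-Hochberg adjustment over all tested genes at 0.05, beside 1.06% of all tested genes. At unadjusted p under 0.05, 3 of the 4 passed at 24 h, against 8.85% of all tested genes, and 2 of the 4 at 48 h, against 15.2%. For 2 of the 4, Cacna2d2 and Ebf3, all Fezf2GFP levels lay above all CtrlGFP levels; vectors without overlap occurred for 19.6% of all tested genes. At 48 h, 1 of the 4 passed (Calb2), against 3.13% of all tested genes, and the arrays did not overlap for Calb2 and Reln, against 9.07%. The median difference of the 4 tested members was 1.34 at 24 h and 1.63 at 48 h on the log2 scale, beside 0.056 and 0.063 over all tested genes. Calb2 reached the tested set only through the Fezf2GFP-labelled arrays at 48 h, where it was high, so these member counts and medians are a description. In sorted bulk cells, fewer cells of a type and less RNA per cell cannot be told apart.

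**Figure D1:**
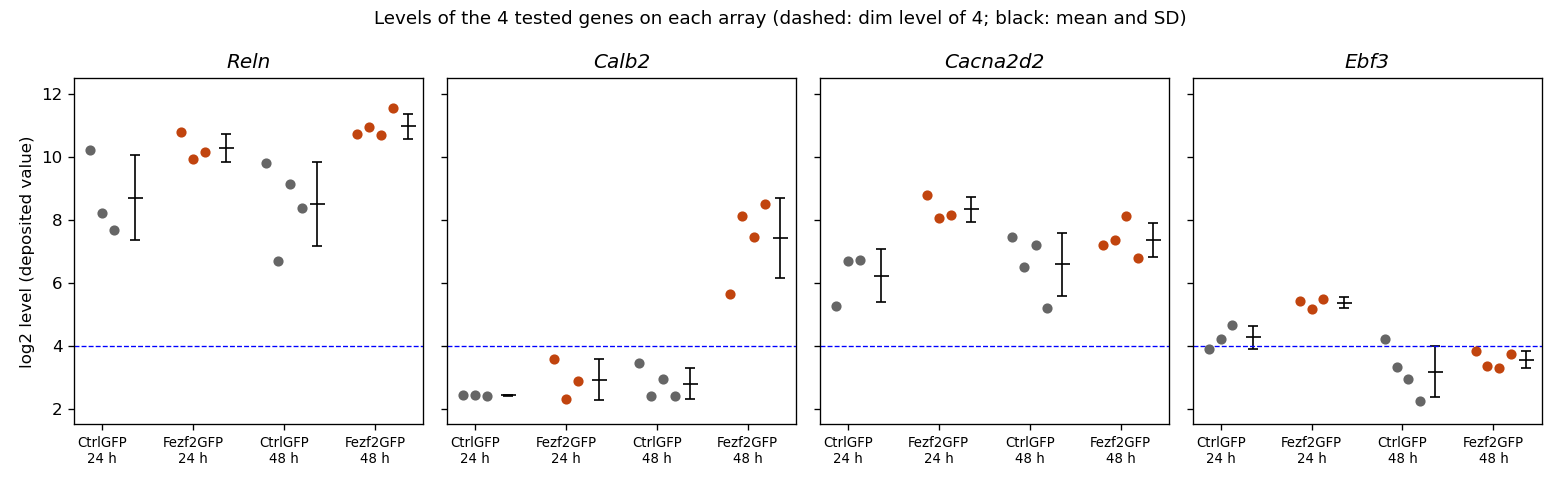
Deposited log2 level (y axis) of Reln, Calb2, Cacna2d2 and Ebf3 on each of the 14 arrays, by vector and time (x axis), with group mean and SD in black and the dim level of 4 dashed. Calb2 leaves the dim range only in Fezf2GFP at 48 h, at 5.64 to 8.52, and the 4 Reln levels there lie between 10.70 and 11.56.

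Reln, the gene of the secreted signal, was above the dim level on all 14 arrays. At 24 h its log2 level was 10.23, 8.23 and 7.67 on the CtrlGFP-labelled arrays and 10.79, 9.94 and 10.16 on the Fezf2GFP-labelled arrays. The groups overlapped through CtrlGFP replicate 1, and the spread was larger in CtrlGFP (mean 8.71 ± 1.35 SD, n = 3) than in Fezf2GFP (10.30 ± 0.44 SD, n = 3). The difference of 1.59 (SE 0.72) did not pass limma's test (adjusted p = 0.550). At 48 h the CtrlGFP-labelled arrays read 9.80, 6.70, 9.13 and 8.37 and the Fezf2GFP-labelled arrays 10.72, 10.95, 10.70 and 11.56. All 4 Fezf2GFP arrays lay above all 4 CtrlGFP arrays, and the Fezf2GFP-labelled arrays again lay closer together (10.98 ± 0.40 SD, n = 4) than the CtrlGFP-labelled arrays (8.50 ± 1.33 SD, n = 4). The difference was 2.48 (SE 0.62, 95% interval 1.13 to 3.83), a 5.58-fold higher mean, and it missed the threshold in limma (adjusted p = 0.0508, rank 326 of 10295 by p). An exact permutation test of the 4 against 4 arrays gave a two-sided p of 0.0286, the smallest that this design can give. Reln at 48 h passed in 7 of 27 alternative settings, with adjusted p from 0.0144 to 0.141 in limma. Leaving out CtrlGFP 24 h replicate 1 gave a limma adjusted p of 0.0236, and leaving out CtrlGFP 48 h replicate 1 gave a difference of 2.91 (limma adjusted p = 0.0285). Without the 2 control arrays that departed together, the difference was 1.88 at 48 h (limma adjusted p = 0.0144) and 2.35 at 24 h (limma adjusted p = 0.0237), so that Reln passed at both times. As the mean of its 2 probe sets, 1 of them always dim, Reln differed by 1.21 at 48 h and by 0.76 at 24 h and passed at neither time. The 24 h difference passed in 2 of 27 alternative settings, with limma adjusted p from 0.00214 to 0.864. The second Reln probe set read 3.24 to 3.47 on all 14 arrays and was never above the dim level.

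The genes that carry the reelin signal inside responding cells were measured in the same sorted cells. All 20 listed reelin receptors and signalling genes were tested, and 0 passed at 24 h, with a median difference of 0.12 and 16 of 20 above 0. At 48 h, 1 was higher and 1 was lower, with a median of 0.31 and 16 of 20 above 0. Over all tested genes, 1.06% passed and 56.4% lay above 0 at 24 h, and 3.13% passed and 57.3% lay above 0 at 48 h. The gene that rose, Pik3r1, encodes the regulatory subunit of phosphatidylinositol 3-kinase that is recruited to phosphorylated Dab1. Its level was 8.84, 8.49, 9.02 and 8.75 on the CtrlGFP-labelled arrays and 10.16, 10.32, 11.62 and 11.17 on the Fezf2GFP-labelled arrays, a difference of 2.04 (SE 0.39, limma adjusted p = 0.0128). The 2 groups did not overlap for Pik3r1, and the call held in 27 of 27 alternative settings. The gene that fell, Dab1, is the adaptor itself. Dab1 read 11.51, 10.47, 10.57 and 11.24 on the CtrlGFP-labelled arrays and 9.50, 9.99, 9.53 and 9.80 on the Fezf2GFP-labelled arrays, a difference of -1.25 (SE 0.28, limma adjusted p = 0.0275). Every Fezf2GFP array lay below every CtrlGFP array, and the call held in 18 of 27 alternative settings. As a mean over the probe sets of Dab1 the difference was -0.78 and did not pass (limma adjusted p = 0.0765). The call was also lost when CtrlGFP 48 h replicate 1 or 4 was left out (limma adjusted p = 0.0671 and 0.0924), or Fezf2GFP 48 h replicate 1, 3 or 4 (limma adjusted p = 0.0651, 0.0718 and 0.0640). With the CtrlGFP vector, Dab1 rose by 1.32 between 24 h and 48 h (limma adjusted p = 0.0108), and with Fezf2GFP the change was -0.10 (limma adjusted p = 0.907). The difference between the vector effects at the 2 times, -1.42 for Dab1, did not pass (limma adjusted p = 0.590).

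The receptors did not pass at either time. Vldlr, the very-low-density lipoprotein receptor, differed by 0.83 at 24 h (limma adjusted p = 0.246) and 0.17 at 48 h (limma adjusted p = 0.792). Lrp8, also called ApoER2, differed by 0.02 at 24 h and 0.40 at 48 h (limma adjusted p = 0.151 at 48 h). Both receptors are named for their role, not by size of change. Between the times, 3 genes of the pathway rose and 1 fell with CtrlGFP, and 2 rose and 1 fell with Fezf2GFP, out of 20 each; 12.6% and 12.1% of all tested genes passed in these comparisons. Among them, Mapt, the microtubule protein tau whose phosphorylation reelin signalling affects, rose by 2.16 with CtrlGFP and 1.78 with Fezf2GFP.

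**Figure D2:**
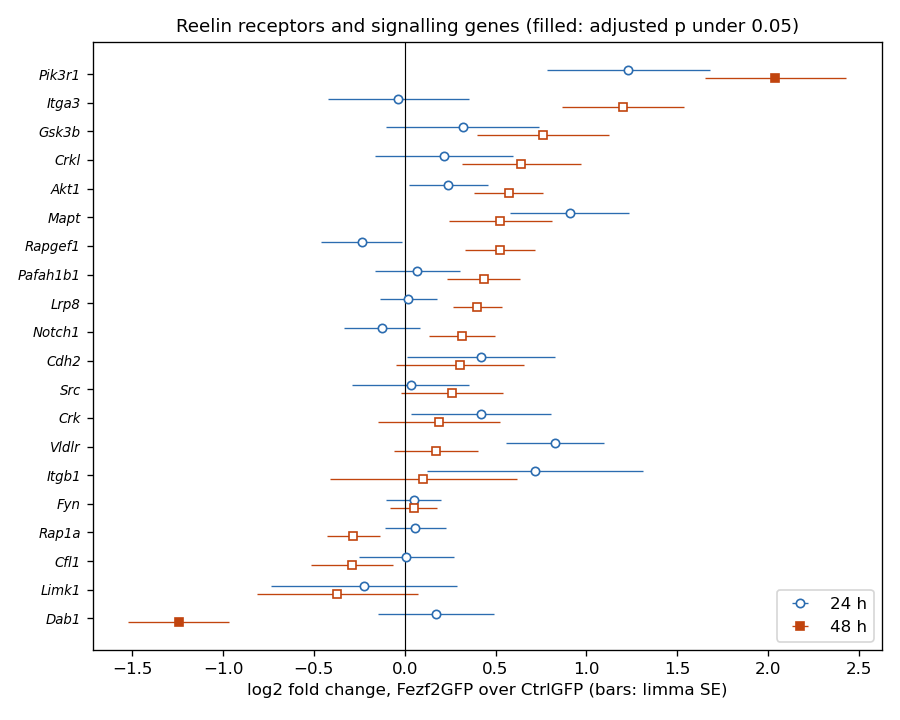
Difference between the vectors on the log2 scale (x axis, Fezf2GFP minus CtrlGFP, bars show limma's SE) for each of the 20 reelin receptors and signalling genes (y axis) at 24 h and 48 h. Filled points passed, which are Pik3r1 at 2.04 and Dab1 at -1.25, both at 48 h.

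Calb2 was the member with the largest difference at 48 h. Its only probe set read 2.44, 2.42 and 2.40 on the CtrlGFP-labelled arrays and 3.59, 2.31 and 2.88 on the Fezf2GFP-labelled arrays at 24 h, all below the dim level, so no fold is given for that time. At 48 h it read 3.46, 2.40, 2.93 and 2.41 with CtrlGFP, again below the dim level on all 4 arrays. With Fezf2GFP at 48 h it read 5.64, 8.13, 7.45 and 8.52. The groups did not overlap, and the Fezf2GFP-labelled arrays were spread from 5.64 to 8.52 (7.44 ± 1.27 SD, n = 4). Since the CtrlGFP side has only an upper bound, Calb2 was at least 10.8-fold higher on the arrays labelled Fezf2GFP (fitted difference 4.64, SE 0.51, limma adjusted p = 0.000332). The call held in 27 of 27 alternative settings, with fitted differences from 3.44 to 5.24. Calb2 was admitted to the test only by these 4 arrays, where it was high, so every p-value given for it, here and between the times, comes after that choice and is a description.

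Calretinin is also a marker of interneurons, and classes of them use Reln, so the GABAergic list was set beside both genes. Of its 10 tested genes 0 passed at either time, beside 1.06% of all tested genes at 24 h and 3.13% at 48 h. The median differences of the list were 1.04 at 24 h and 0.61 at 48 h. The summed level of the list, on the log2 scale, was 9.93, 10.33, 10.83 and 10.27 on the Fezf2GFP-labelled arrays at 48 h and 11.26, 9.31, 9.70 and 8.54 on the CtrlGFP-labelled arrays. The 2 groups overlapped. The highest sum, 11.26, was on CtrlGFP replicate 1, where Calb2 read 3.46, dim but its highest level in that group. At 24 h the sums were 11.13, 8.60 and 9.54 with Fezf2GFP, where Calb2 read 3.59, 2.31 and 2.88, all dim. With CtrlGFP at 24 h the sums were 8.94, 8.23 and 8.07, so these groups overlapped too. Of the 11 genes of the list on the array, Gad1, Dlx2 and Sp8 were above the dim level on all 14 arrays and Dlx6 on none. At 24 h 10 of the 10 tested genes had differences above 0 and at 48 h 8 of 10, beside 56.4% and 57.3% of all tested genes. With CtrlGFP, the array with the highest sum also read highest for Reln at 24 h (10.23) and at 48 h (9.80). The same held with Fezf2GFP at 24 h (10.79). With Fezf2GFP at 48 h the highest sum, 10.83, was on replicate 3, where Reln read lowest, at 10.70. The part of such cells in the Calb2 and Reln results was not tested.

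Cacna2d2 was the member with the smallest p at 24 h. It read 5.26, 6.70 and 6.72 on the CtrlGFP-labelled arrays and 8.78, 8.07 and 8.15 on the Fezf2GFP-labelled arrays. The groups did not overlap, with means of 6.23 ± 0.84 SD and 8.33 ± 0.39 SD (n = 3 each). The difference of 2.11 (SE 0.55), a 4.31-fold higher mean, did not pass limma's test over all genes (adjusted p = 0.108, rank 204), and with 3 against 3 arrays an exact permutation test cannot give a two-sided p under 0.1. At 48 h the CtrlGFP-labelled arrays read 7.45, 6.50, 7.20 and 5.20 and the Fezf2GFP-labelled arrays 7.21, 7.36, 8.11 and 6.80. These groups overlapped, and the difference of 0.78 (SE 0.48, 95% interval -0.25 to 1.81) did not pass (limma adjusted p = 0.497). Over the alternative settings the 24 h difference ranged from 0.63 to 2.35 and passed in 2 of 27, with array weights (limma adjusted p = 0.0136) and without CtrlGFP 48 h replicate 4, an array of neither group (limma adjusted p = 0.0429). The other 2 probe sets of Cacna2d2 lay at 3.53 to 4.05 and 2.82 to 3.07 over all arrays, and 1 array, CtrlGFP 48 h replicate 2, exceeded the dim level at 4.05.

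Ebf3 was the only transcription factor of the 7 genes above the dim level on some arrays. At 24 h it read 3.91, 4.23 and 4.66 with CtrlGFP and 5.43, 5.16 and 5.50 with Fezf2GFP. The Fezf2GFP-labelled arrays all lay above the CtrlGFP-labelled arrays, and 2 of 3 CtrlGFP arrays and 3 of 3 Fezf2GFP arrays were above the dim level. The difference of 1.10 (SE 0.38), a 2.14-fold higher mean, did not pass limma's test (adjusted p = 0.314). It passed in 2 of 25 alternative settings, with array weights (limma adjusted p = 0.0410) and with values below 4 set to 4 (limma adjusted p = 0.00788). At 48 h it read 4.20, 3.34, 2.95 and 2.24 with CtrlGFP and 3.82, 3.35, 3.30 and 3.74 with Fezf2GFP. Only 1 of these 8 arrays was above the dim level, so no fold is given for 48 h. A second Ebf3 probe set is listed for the same target sequence as the first, so it is not taken as a separate reading. At 24 h it read 3.10, 3.42 and 3.82 with CtrlGFP and 3.98, 4.46 and 3.99 with Fezf2GFP, without overlap. It was dim on all but 1 array. The remaining Ebf3 probe set lay at 2.36 to 2.56 on all arrays.

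**Figure D3:**
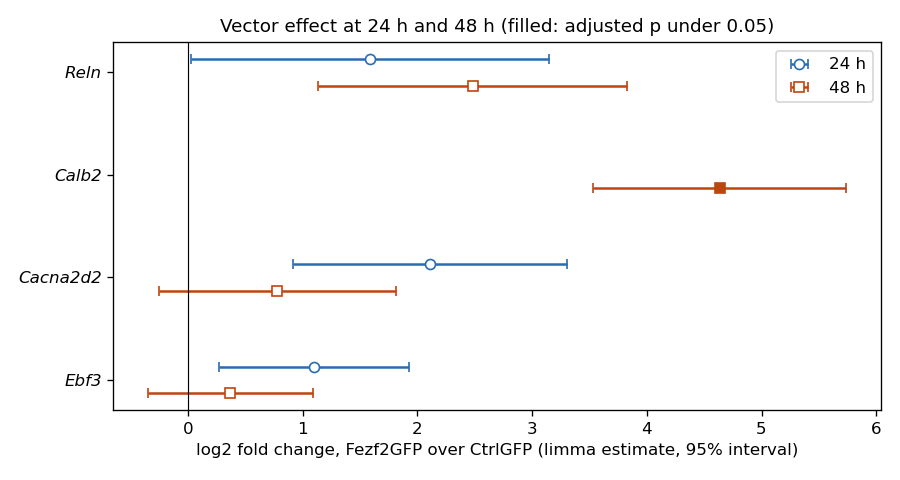
Vector effect (x axis, log2 fold change of Fezf2GFP over CtrlGFP with limma's 95% interval) for the 4 tested genes at 24 h and 48 h. The Calb2 point at 24 h is left out because both groups were below the dim level, and the filled point is Calb2 at 48 h, a fitted value of 4.64 that stands for a difference of at least 10.8-fold.

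The factors that define Cajal-Retzius cells most directly gave no level above the dim range. The 5 probe sets of Trp73, Lhx1 and Lhx5 read 2.00 to 2.74 over all 14 arrays, and each spanned only 0.11 to 0.34 log2 units from its lowest to its highest array. Trp73 read 2.16 to 2.27 on 1 probe set and 2.40 to 2.74 on the other. Lhx1 read 2.00 to 2.11 and 2.21 to 2.33, and Lhx5 read 2.55 to 2.70. No vector or time moved them out of this range, and a level under the dim range is not a measure of absence. The cell type in the name of the gene set could therefore not be checked by these factors, and the results are given for the 7 genes, not for the cells. Of the 8 member probe sets that were dim on all arrays, the highest array was CtrlGFP 24 h replicate 1 for 5, CtrlGFP 48 h replicate 2 for 2 and Fezf2GFP 48 h replicate 4 for 1, so the first 2 are the control arrays that departed together.

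**Figure D4:**
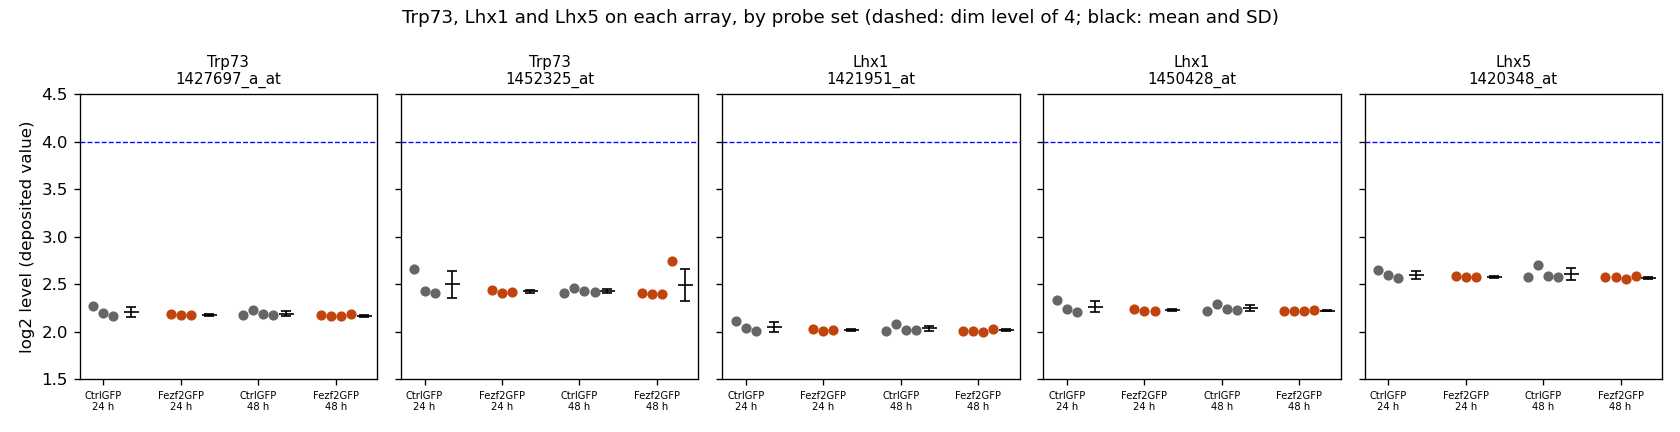
Deposited log2 level (y axis) of the 5 probe sets of Trp73, Lhx1 and Lhx5 on each array, by vector and time (x axis), with group mean and SD in black and the dim level of 4 dashed. All values lie between 2.00 and 2.74 in every group.

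The members also differed in how they moved between 24 h and 48 h. With CtrlGFP, 0 of the 4 tested members passed, against 12.6% of all tested genes; the differences were -1.08 for Ebf3 (SE 0.36, limma adjusted p = 0.0677), 0.36 for Cacna2d2 and -0.21 for Reln. Without CtrlGFP 48 h replicate 1, Ebf3 passed here (-1.42, limma adjusted p = 0.00900). With Fezf2GFP, 2 of the 4 passed, 1 higher and 1 lower, against 12.1% of all tested genes. Calb2 was at least 10.8-fold higher at 48 h than at 24 h (fitted difference 4.51, SE 0.55, limma adjusted p = 0.000368). Ebf3 was at least 2.57-fold lower at 48 h, where all 4 arrays were dim (fitted difference -1.81, SE 0.36, limma adjusted p = 0.00545). Both calls held in each alternative setting that could be fitted, 27 for Calb2 and 25 for Ebf3. The differences for Reln and Cacna2d2 were 0.69 and -0.97 with this vector and did not pass (limma adjusted p = 0.611 and 0.282). The 2 time comparisons share no arrays with each other, but each shares its arrays with the vector comparisons.

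Whether the vector effect differed between the times was tested as an interaction. For the members 0 of 4 passed, against 0.0971% of all tested genes. For Calb2 the effect at 48 h exceeded that at 24 h by 4.13 (SE 0.78, limma adjusted p = 0.0997), with all 24 h arrays below the dim level, and it passed without Fezf2GFP 48 h replicate 1 (limma adjusted p = 0.00807). The effect at 48 h minus that at 24 h was -1.33 for Cacna2d2 (SE 0.73), -0.73 for Ebf3 and 0.89 for Reln (limma adjusted p = 0.998 for each). The 95% interval for Reln ran from -1.17 to 2.95, so that a larger and a smaller effect at 48 h both lie inside it.

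Other genes known from Cajal-Retzius cells and their sources did not pass with the vector. Of 15 such genes on the array 8 were tested and 5, namely Dbx1, Gdf5, Lmx1a, Wnt3a and Zic2, were never above the dim level. At 24 h 0 of the 8 passed, with a median difference of 0.66 and 8 of 8 above 0, beside 1.06% passed and 56.4% above 0 over all tested genes. At 48 h 0 passed, with a median of 0.41 and 6 of 8 above 0, beside 3.13% and 57.3%. The summed level of a list adds unlogged levels, so it follows the brightest genes of the list. For these 15 genes it was 12.79 to 13.28 on the log2 scale with Fezf2GFP at 24 h. With CtrlGFP it was 11.85 to 12.47, without overlap, beside 19.6% of single tested genes without overlap. At 48 h it was 12.63 to 13.37 with Fezf2GFP against 12.43 to 13.07 with CtrlGFP, with overlap. Rspo3, a secreted activator of Wnt signalling, had the smallest p, with 0.92 at 24 h (SE 0.23, limma adjusted p = 0.0849) and -0.08 at 48 h. Rspo3 rose with time under both vectors, by 4.19 with CtrlGFP (SE 0.21, limma adjusted p = 5.12e-07), from a mean of 5.59 to 9.78, and by 3.19 with Fezf2GFP (limma adjusted p = 5.01e-06).

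The relatives of the 7 genes were also read. Of 19 paralogues on the array 8 were tested and 8 were never above the dim level. None of the 8 passed in limma at 24 h (median 0.94, 8 of 8 above 0), beside 1.06% passed and 56.4% above 0 over all tested genes. At 48 h Ebf4, a close relative of Ebf3, rose by 1.19 (SE 0.23, limma adjusted p = 0.0125), and the median of the 8 was 0.88. The Ebf4 call held in 26 of 27 alternative settings. Calb1, the calbindin relative of Calb2, differed by 1.83 at 48 h without passing (limma adjusted p = 0.0821); it was chosen for mention after its value was seen.

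Partners of the dim transcription factors were present. Of 15 LIM-domain cofactors and partners of EBF and p73 proteins, 14 were tested. At 24 h 0 passed, with a median of 0.29 and 10 of 14 above 0, beside 1.06% and 56.4% of all tested genes. At 48 h the list median was 0.21, with 11 of 14 above 0, beside 57.3%. Here 1 passed, beside 3.13% of all tested genes. This was Lmo3, a LIM-only protein that competes with LIM-homeodomain factors for their cofactor, which read 8.61, 7.66, 7.70 and 6.87 with CtrlGFP and 10.43, 10.01, 10.02 and 10.20 with Fezf2GFP. The groups did not overlap, and the difference was 2.45 (SE 0.29, limma adjusted p = 0.000481). The Lmo3 call held in 27 of 27 alternative settings, and with Fezf2GFP Lmo3 also rose by 1.59 between the times (limma adjusted p = 0.00536).

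Markers of other cell types that the sort could hold were read beside these results. Subplate and preplate neurons lie next to Cajal-Retzius cells early on, and of their 11 genes on the array 7 were tested and 4 (Cdh18, Cplx3, Moxd1 and Nxph4) were never above the dim level. At 24 h 1 of the 7 passed, beside 1.06% of all tested genes. The list median was 0.93, with 6 of 7 above 0, beside 56.4%. At 48 h 1 passed, beside 3.13%, and the median was 0.77, with 6 of 7 above 0, beside 57.3%. Tmem163, a zinc-binding membrane protein of this list, rose by 1.67 at 24 h (limma adjusted p = 0.0404) and by 1.33 at 48 h (limma adjusted p = 0.0326). These Tmem163 calls held in 11 and 16 of 27 alternative settings. At 24 h the call was lost without any 1 of the 6 arrays compared, and also with a single 48 h array removed, either of CtrlGFP (replicate 1 or 4) or of Fezf2GFP (replicate 1 or 2; limma adjusted p from 0.0546 to 0.219). At 48 h it was lost on removing replicate 1, 2 or 4 of either vector at 48 h, or replicate 2 of Fezf2GFP at 24 h (limma adjusted p from 0.0507 to 0.0915). The summed subplate level, on the log2 scale, was 13.07 to 13.32 with Fezf2GFP at 24 h. With CtrlGFP it was 12.10 to 12.49, without overlap, beside 19.6% of single tested genes without overlap. At 48 h it was 12.29 to 13.15 with Fezf2GFP against 11.08 to 12.52 with CtrlGFP, with overlap. The sum of the other Cajal-Retzius cell genes also did not overlap at 24 h. The subplate sum thus moved with the same vector as the members, and its part in their values was not tested.

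Markers of meningeal, choroid plexus and hem, vessel, and microglia and blood cells were mostly dim. Never above the dim level were 8 of 10 meningeal genes and 8 of 10 choroid plexus and hem genes. The same held for 5 of 9 endothelial and pericyte genes and 7 of 8 microglia and blood genes. In limma's comparison of the vectors 0 tested genes of these lists passed, beside 1.06% of all tested genes at 24 h and 3.13% at 48 h. At 48 h the summed meningeal level, on the log2 scale, was 9.61 to 10.06 with Fezf2GFP and 10.32 to 10.71 with CtrlGFP. These sums did not overlap, beside 9.07% of single tested genes without overlap. At 24 h they were 10.36 to 11.19 against 10.58 to 11.80. The only gene of the list above the dim level on all 14 arrays was Cxcl12. At 48 h Cxcl12 alone read 9.48 to 9.96 with Fezf2GFP and 10.25 to 10.66 with CtrlGFP, so the sum mostly follows this gene. Its difference of -0.65 did not pass (limma adjusted p = 0.255). The collagen genes Col1a1, Col1a2 and Col3a1 were always dim. The summed endothelial and pericyte level was 8.92 to 10.19 with Fezf2GFP against 8.14 to 9.46 with CtrlGFP at 48 h, and 7.40 to 10.26 against 7.59 to 9.09 at 24 h, both with overlap. The 3 tested genes of that list, Pdgfrb, Rgs5 and Cldn5, were above the dim level on 14, 11 and 8 arrays. Their median difference was 1.02 at 48 h, with 3 of 3 above 0, beside 57.3% of all tested genes. The vessel genes Pecam1, Cdh5 and Kdr were always dim. Of the microglia and blood genes, C1qb was above the dim level on all 14 arrays. The part of such cells in the members' values was not tested. Ttr, the transthyretin gene of the choroid plexus, was high on single arrays, at 9.95 on Fezf2GFP 24 h replicate 3, 9.38 on CtrlGFP 48 h replicate 3 and 8.32 on Fezf2GFP 48 h replicate 3, and these arrays belong to both vectors. Among the 13 cortical excitatory lineage genes tested, 0 passed at 24 h, beside 1.06% of all tested genes. Their median difference at 24 h was 0.18, with 10 of 13 above 0, beside 56.4%. At 48 h the median was 0.24, with 9 of 13 above 0, beside 57.3%. Here 2 rose, beside 3.13% of all tested genes that passed. The progenitor filament gene Nes rose by 1.30 (limma adjusted p = 0.00472, passed in 26 of 27 alternative settings). The cortical homeobox gene Emx1 rose by 1.06 (limma adjusted p = 0.0404, passed in 9 of 27 alternative settings). As a mean over the probe sets of the gene, Nes differed by 0.65 (limma adjusted p = 0.185) and Emx1 by 0.52, and neither passed. The Emx1 call was lost without any 1 array except CtrlGFP 24 h replicate 1 and CtrlGFP 48 h replicate 2 (limma adjusted p from 0.0507 to 0.119).

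The genes whose levels ran most like each member over the 14 arrays differed from member to member. Pearson's r with Calb2 was 0.97 for Cntnap5a, 0.95 for Zdhhc22 and 0.95 for Pcdh20. Like Calb2, Cntnap5a and Zdhhc22 were above the dim level only with Fezf2GFP at 48 h and entered the test through that group alone. Their r thus mostly sets this 1 group against dim levels, whereas Pcdh20 was above the dim level on every array. With Reln it was 0.89 for Fxyd6, Gpam and Lpin2 each. With Cacna2d2 it was 0.88 for Dnajc12, 0.84 for Pdlim5 and 0.83 for Pcdh11x. With Ebf3 it was 0.93 for Mcur1, 0.92 for Ccdc82 and 0.90 for Gja1. These are descriptions, since the arrays share groups and 4 group means can set such values, and no gene appears among the 3 most alike of more than 1 member.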

How the data were processed

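RNA from sorted cells passed through 2 in vitro transcription rounds and was hybridised to Affymetrix mouse arrays, per the labels' protocols. The authors deposited log2 values; GCRMA is the tool named in the submitters' processing notes (version and options not given in the sources used here). Such amplification and background models can compress low levels. Of 45037 probe sets the platform annotation gives 34945 exactly 1 gene symbol, 932 several and 9160 none. The probe set of highest mean over all arrays stood for each gene, and genes above a log2 level of 4 on fewer than 3 of 14 arrays were set aside (7898 of 18193). The 10295 others were fitted in limma 3.58.1 (R 4.3.3) with 1 mean per group over all 14 arrays, and p-values were adjusted by Benjamini-Hochberg over all of them, with 0.05 as the threshold. The fit was tested on simulated data. Bounds compare the bright mean with the dim level. The members and gene lists were chosen with earlier results of these data known. Named were all members, up to 3 genes of each list that passed with the vector (otherwise the smallest p), up to 2 that passed only in time, and the 3 tested genes most correlated with each tested member; receptors and markers are named for their role. Alternatives covered the dim level, the choice of probe set, normalization, array weights, the variance prior, a replicate block and leaving out each array. The number of arrays limits the precision. Deviations of same-numbered arrays from their group means correlated at -0.06 to 0.32, above 0.1 for 4 of 7 pairs; since not every pair did, the numbers were not taken to pair the arrays. Promoters came from RefSeq, GRCm38.p6.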

Additional observations from a re-analysis of the deposited data

Results flagged for a closer look

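In 7 of 28 groups of 4 arrays, 1 array lay far from the other 3 by Dixon's criterion, which chance gives in about 5% of independent groups. These groups share arrays and are not independent, and most of the 7 name the same array, CtrlGFP 48 h replicate 2. The 2 shares are therefore not compared. CtrlGFP 48 h replicate 2 was the highest of its group for 2 probe sets of Cacna2d2, at 4.05 and 2.91, for 1 of Ebf3 at 2.56, for 1 of Lhx1 at 2.08 and for Lhx5 at 2.70. Fezf2GFP 48 h replicate 2 was the lowest of its group for another Ebf3 probe set, at 2.89. Fezf2GFP 48 h replicate 4 was the highest for 1 probe set of Trp73, at 2.74. None of these 7 probe sets entered the main fit. Those of Trp73 and Lhx5 entered the setting without a filter on dim probe sets. The 2 of Cacna2d2 entered the mean over the probe sets of that gene.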

How the results depend on the processing

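Over the settings tried, 1211 of 1342 single-gene values kept their direction and side of the threshold, 103 lost a call, 18 gained one and 10 changed sign. These counts include the exact permutation tests at 48 h, whose unadjusted p was set against the same threshold. Of the 18 gains, 1 was such a test, for Reln (permutation p = 0.0286). Members that passed at 24 h (0) became 3 with array weights, 1 with values below 4 set to 4, 1 without the 2 control arrays that departed together, and 0 to 1 with 1 array left out. At 48 h (1) they became 2 with a dim level of 6, median centring, array weights, an intensity trend in the variance prior, or without the 2 control arrays, and 1 to 2 with 1 array left out (2 without CtrlGFP 24 h replicate 1 or CtrlGFP 48 h replicate 1). For the difference between the times (0), array weights gave 1 and leaving out 1 array 0 to 1 (1 without Fezf2GFP 48 h replicate 1). For time with CtrlGFP (0), array weights gave 1 and leaving out 1 array 0 to 1 (1 without CtrlGFP 48 h replicate 1). For time with Fezf2GFP (2), a dim level of 6 and the mean over probe sets each gave 1, with 3 members tested. Signs changed for Ebf3 at 48 h (-0.051 with values set to 4), the Reln difference between times (-0.035 with array weights, -0.47 without the 2 control arrays), Reln over time with CtrlGFP (0.83, 1.15, and -0.73 to 0.55 with 1 array left out) and Cacna2d2 over time with CtrlGFP (-0.032, -0.094, and -0.12 to 0.82); the cause was not tested. With the replicate block the counts of members that passed were 0, 1, 0, 0 and 2, as without it. Under the block Dab1 (limma adjusted p = 0.0514) and Emx1 (0.0726) at 48 h and Tmem163 at 24 h (0.141) and 48 h (0.102) did not pass; 6 of 14 arrays correlated best with an array of their own number. The robust prior and the setting of values to 4 were chosen after seeing the data. Setting values to 4 left Calb2 at 24 h without a value, and a dim level of 6 left Ebf3 untested. Levels near the dim range limit what can be said of Ebf3, Trp73, Lhx1 and Lhx5.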
